A study of Homo sapiens with 24 samples.

Results

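The cytoplasmic ribosomal protein genes were examined as promoters that nearly every cell keeps in use. They were the autosomal protein-coding genes of the GENCODE annotation whose symbols read RPL or RPS followed by a digit, without the RPS6K kinases, and 80 of 19229 autosomal protein-coding genes met this rule. Of these, 40 encode proteins of the large subunit and 29 proteins of the small subunit. The other members were 8 paralogs (RPL22L1, RPL39L, RPL26L1, RPL7L1, RPL10L, RPL36AL, RPS27L and RPL3L) and 3 other loci, namely the readthrough genes RPS10-NUDT3 and RPL17-C18orf32 and the nucleolar gene RPS19BP1. The readthrough genes start within the promoters of RPS10 and RPL17 and share their peaks. Genes of the rule on the sex chromosomes, 7 in number, were not used here.

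The cells were PANC-1, a line from a human pancreatic ductal carcinoma, and carried either a control siRNA (siControl) or an siRNA against PHF13 (siPHF13). PHF13 is a reader protein of methylated H3K4. Untreated siControl cells were compared with siControl cells given TGFβ (siControl+TGFβ), and these with PHF13-depleted cells given TGFβ (siPHF13+TGFβ). TGFβ, which drives epithelial-to-mesenchymal transition, was present at 10 ng/ml for 48 h. H3K4me3, H3K27ac and H3K27me3 were profiled by chromatin immunoprecipitation and sequencing, with 2 libraries per group and mark and therefore 6 peak lists per mark. Nothing in the labels says whether the 2 libraries of a group came from separate cultures, so p-values measure the spread between these libraries, which may be technical.

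Ribosomal proteins are the structural proteins of the ribosome, and a growing cell makes them in near-equal amounts from genes scattered over the genome. Most of their transcripts begin with a C followed by a run of pyrimidines, the terminal oligopyrimidine (TOP) tract, through which growth signalling sets their translation. H3K4me3 lies on nucleosomes next to active or poised start sites, H3K27ac marks active promoters and enhancers, and H3K27me3 marks chromatin repressed by Polycomb.

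The starts of 5 members are shown because the results turn on them. RPS16 had the highest H3K4me3 ranks of all members, RPS14 was among the members at the top of the lists, RPS6 had the lowest ranks, RPL38 was the single member with H3K27me3 nearby in every list, and RPL10L had no peak. Each line is GRCh37 sequence on the strand of the gene, from 120 bp before the transcription start site (TSS) to 30 bases from it, with matches to the searched letters in capitals.
RPS16 (chr19:39926560-39926709, minus strand): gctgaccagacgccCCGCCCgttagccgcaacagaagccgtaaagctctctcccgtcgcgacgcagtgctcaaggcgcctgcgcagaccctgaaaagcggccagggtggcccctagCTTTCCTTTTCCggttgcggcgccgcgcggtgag
RPS14 (chr5:149829273-149829422, minus strand): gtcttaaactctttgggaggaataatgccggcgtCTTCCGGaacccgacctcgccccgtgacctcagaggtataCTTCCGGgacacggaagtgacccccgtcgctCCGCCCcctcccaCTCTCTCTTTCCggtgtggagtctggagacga
RPS6 (chr9:19380205-19380354, minus strand): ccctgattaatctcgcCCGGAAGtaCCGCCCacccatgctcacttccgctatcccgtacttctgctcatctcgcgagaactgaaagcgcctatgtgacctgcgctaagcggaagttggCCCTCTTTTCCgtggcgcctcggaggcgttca
RPL38 (chr17:72199697-72199846, plus strand): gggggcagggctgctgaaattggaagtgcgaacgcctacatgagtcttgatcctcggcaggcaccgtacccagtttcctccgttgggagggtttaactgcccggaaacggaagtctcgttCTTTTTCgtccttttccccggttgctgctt
RPL10L (chr14:47120955-47121104, minus strand): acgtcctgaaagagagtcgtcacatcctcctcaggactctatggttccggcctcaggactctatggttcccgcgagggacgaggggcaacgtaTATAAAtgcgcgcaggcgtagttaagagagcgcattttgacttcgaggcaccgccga

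The capitals near the TSS in the first 4 lines are TOP-like tracts, and the tract of RPS16 reads CTTTCCTTTTCC. A TOP-like start was taken as a C followed by at least 4 pyrimidines, beginning within 5 bases of the annotated TSS on the strand of the gene. In windows from 250 bp before to 50 bp after the TSS, 64 of 80 members (80.0%) had one, against 21.7% of all 19229 genes. By class, 33 of 40 large-subunit genes, 26 of 29 small-subunit genes and 3 of 8 paralogs had it. RPL3L and RPL10L had none.

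The other motifs were searched on both strands of the same windows. CCGGAAG, an ETS-type motif, lay in 28 of 80 members (35.0%) and in 14.1% of all genes. AAGATGG, a YY1-type motif that often covers the start codon, lay in 16 members (20.0%) and in 6.34% of all genes. GGGCGG, an SP-type motif, lay in 47 members (58.8%) and 61.3% of all genes, and TATAAA in 8 members (10.0%) and 9.81% of all genes. In RefSeq promoter sequences of build GRCh38.p14, where 61 members were found, the shares were 34.4% for CCGGAAG and 78.7% for the TOP-like start, against 16.9% and 28.2% of 14591 genes. A match describes letters only.

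Members were also close to other transcription units. A gene on the opposite strand started within 1000 bp upstream of 28 members (35.0%), against 19.0% of all genes, and 14 of these partners were protein-coding. Small nucleolar RNAs, which guide the chemical modification of ribosomal RNA, lay inside 26 members (32.5%), 58 of them in all, against 2.07% of all genes. RPL7A, RPL13A, RPL4 and RPL23A each held 4. The median gene length was 5596 bp in members and 27568 bp in all genes.

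The lists differed in length, which touches every value below. H3K4me3 lists held 27869 to 39202 peaks and H3K27ac lists 6004 to 36104, the shortest being siPHF13+TGFβ replicate 1. Peak names inside the lists labelled siControl+TGFβ and siPHF13+TGFβ carry abbreviations that do not match these labels. Those labelled siPHF13+TGFβ carry NCT, which the study uses for control siRNA with TGFβ. Groups were taken from the labels, and an exchange of these 2 groups would change every comparison with TGFβ as well as every comparison with depletion. Of the ductal epithelial markers KRT7, KRT8, KRT18, KRT19 and SOX9, 4 had an H3K4me3 peak at the promoter in all 6 lists and KRT7 had it in none. Of 6 markers of blood, endocrine and acinar cells, 6 had none.

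To determine which members carried the active marks, peaks were counted in the 2 kb window centred on the TSS of each gene. H3K4me3 was present in all 6 lists at 78 of 80 members (97.5%), against 67.5% of all genes. Every large-subunit and small-subunit gene was among them, as were 6 of 8 paralogs and the 3 other loci. RPL10L and RPL3L, paralogs best known from testis and from muscle, had a peak in none of the 6 lists, a state shared by 28.3% of all genes. All 78 mitochondrial ribosomal protein genes had the mark in all 6 lists, as had 6 ribosomal protein genes that the naming rule passes over, RPLP0 and RPSA among them, and the fixed lists of 35 translation factors and 30 ribosome biogenesis genes.

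H3K27ac was present in all 6 lists at 42 members (52.5%), against 18.4% of all genes, and the short list set this number. Of 77 members with H3K27ac in the other 5 lists, 35 lacked a peak only in siPHF13+TGFβ replicate 1. RPL39L, a paralog of RPL39, had H3K27ac in 4 lists and lacked it also in siControl replicate 1. Of the genes with peaks in those 5 lists, siPHF13+TGFβ replicate 1 held a peak at 54.5% of members and 41.3% of all 8577. The share was 62.1% in small-subunit genes, 20 of 40 in large-subunit genes, 50.7% in mitochondrial ribosomal protein genes and 82.9% in translation factors. Members retained in that list stood nearer the top in the other siPHF13+TGFβ library, with a median rank of 3362 against 6823 for those it lacked. The same split was wider over all genes, at 3002 and 8064.5, and in mitochondrial ribosomal protein genes, at 3045.5 and 8091.75.

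H3K27me3 was nearly absent from these promoters. It reached the window in none of the 6 lists at 78 of 80 members (97.5%), against 70.4% of all genes. The exceptions were RPL38 in 6 lists and RPS29 in 1. At RPL38 the broad peak lay wholly upstream, and its nearest edge was 620 and 439 bp from the TSS in siControl, 627 and 363 bp with TGFβ, and 743 and 438 bp with TGFβ and siPHF13. Its covered part of the window was 381 and 562 bp, 374 and 638 bp, and 258 and 563 bp in that order. The peak itself was 1251 to 33451 bp wide, so RPL38 stood at the edge of a domain that differed in extent between libraries of 1 group. The fold enrichment of that peak was 3.29 to 3.76. At RPS29 a peak of 193 bp was found in siControl replicate 1 alone, with its nearest edge 272 bp upstream of the TSS.

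The position of H3K4me3 around the TSS differed from that at other genes. At 425 bp downstream of the TSS, 100% of the 78 members were covered in each of the 6 lists, against 88.2% to 95.6% of the 12977 genes with a peak in all 6. At 1225 bp downstream the share was 71.8% to 94.9% of members and 26.96% to 44.8% of all genes. Just upstream, at 75 bp, the order was the other way, with 44.9% to 64.1% of members and 67.4% to 80.0% of all genes. In every list the median summit of members was further downstream than that of all genes, at 508 to 684 bp against 332 to 406 bp. These are descriptions across genes, which are not replicates of a condition.

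**Figure D1:**
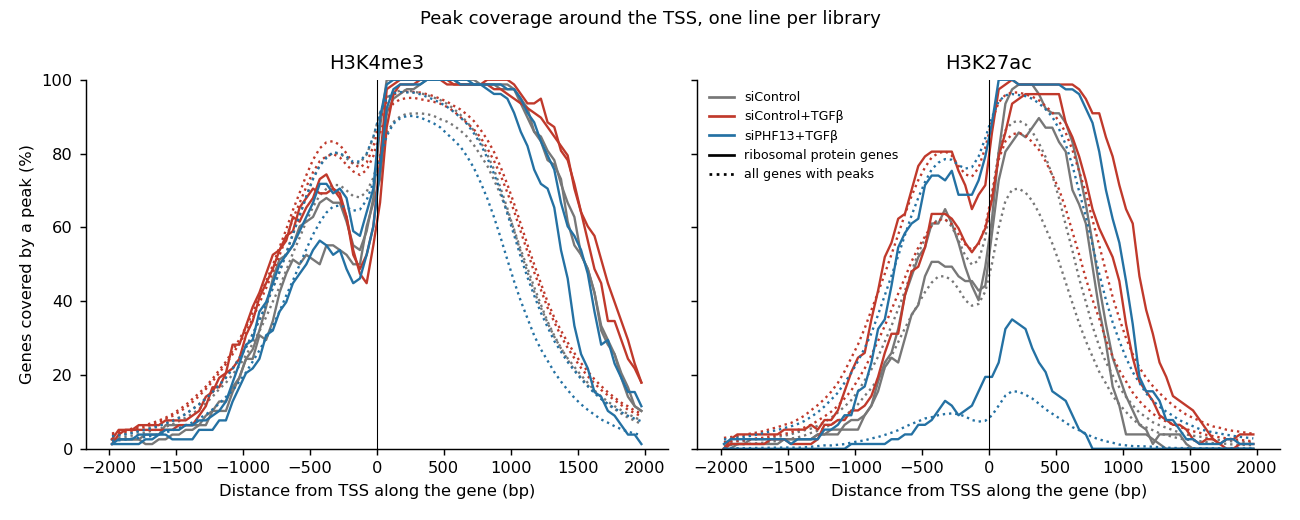
Percentage of genes covered by a peak (y axis) against distance from the TSS in bp along the gene (x axis), with 1 line per library, solid for ribosomal protein genes and dotted for all autosomal protein-coding genes with peaks. H3K4me3 of the members dipped just before the TSS and reached further into the gene, with 71.8% to 94.9% of members covered at 1225 bp. In H3K27ac, the low blue lines are siPHF13+TGFβ replicate 1.

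For H3K27ac the ranges of members and of all genes over the 5 longer lists overlapped at each of these distances. The ranges pool lists of 19413 to 36104 peaks, so their overlap does not compare members with all genes inside 1 list. At 425 bp downstream, 87.0% to 98.7% of members and 59.8% to 92.9% of all 8577 genes were covered. At 1225 bp the shares were 1.3% to 31.2% and 5.05% to 16.99%, and at 75 bp upstream 40.3% to 72.7% and 39.2% to 79.2%. Within each of these lists the median bp covered downstream of the TSS was larger in members. It was 706 and 761 bp for siControl (463 and 626 bp over all genes) and 993 and 862 bp with TGFβ (844 and 660 bp). In siPHF13+TGFβ replicate 2 it was 965 bp (801 bp). H3K27ac summits stood nearer to the TSS than those of H3K4me3, at a median of 141 to 226 bp in members and 131 to 139 bp in all genes.

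The members varied widely in how much of the window H3K4me3 covered. The mean over the 6 libraries ran from 881 to 2000 bp, with a median of 1517 bp over members and 1518 bp over all genes with peaks. RPS27A, RPL9, RPL30, RPS25 and RPS21 were covered over the whole window of 2000 bp in each of the 6 libraries, so these windows cannot show a gain. Each has a divergent partner, which starts 395, 134, 108, 423 and 103 bp upstream in that order. Members with such a partner had a median of 1786 bp and those without 1370 bp, and in all genes the medians were 1726 and 1447 bp. The narrowest members were RPL23A at a mean of 881 bp, RPS3 at 968 bp, RPL36 at 969.5 bp, RPL13A at 979 bp and RPS3A at 984.5 bp. In every H3K4me3 list the median member was covered over the full 1000 bp downstream of the TSS, so a gain on that side could not show.

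To place each promoter within its library, peaks were ranked in each list by −log10 q, with rank 1 the strongest, and a promoter took the rank of its strongest peak. Members stood above the typical gene for H3K4me3. Their median rank was 3882 and 4913 for siControl, 6619 and 6632 with TGFβ, and 4658 and 4993 with TGFβ and siPHF13, while over all genes with peaks it was 7453 and 7559, 7980 and 7863, and 7430 and 7659. The median of members was thus nearer the top than that of all genes in 6 of 6 lists. Their enrichment was not higher, however. The median fold enrichment of members was 5.15 and 5.67 for siControl, 5.06 and 4.93 with TGFβ, and 5.65 and 5.80 with TGFβ and siPHF13, below the median of all genes in each list, which was 5.78 to 6.91.

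**Figure D2:**
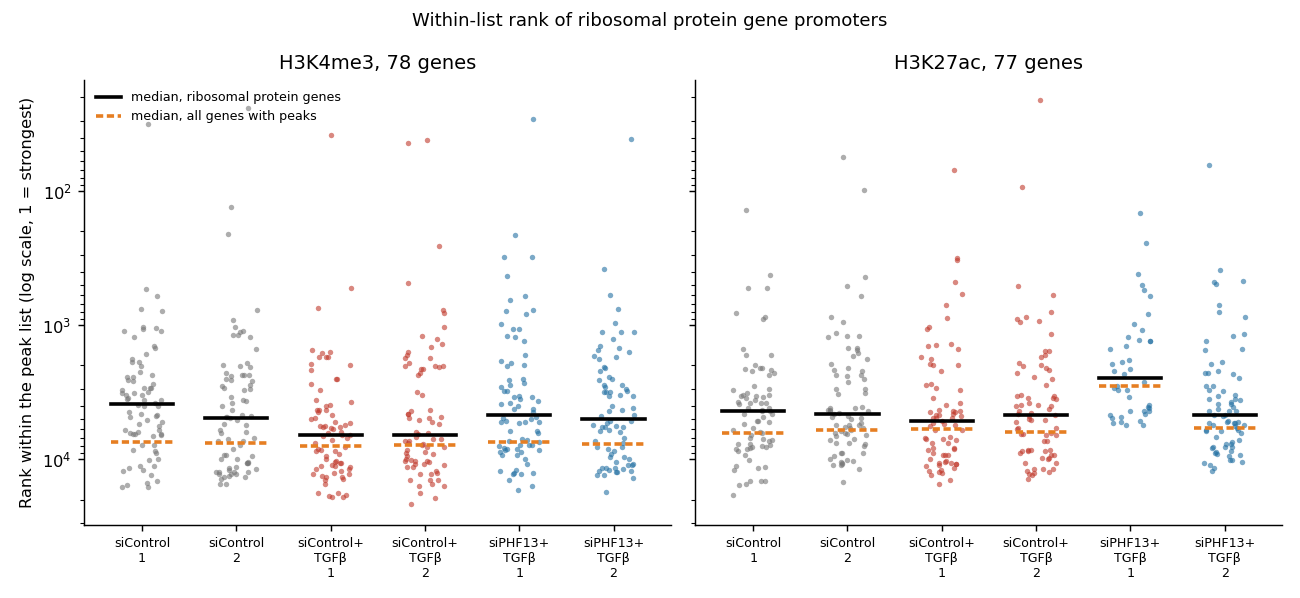
Rank within the peak list (log axis, 1 = strongest, drawn at the top) of each ribosomal protein gene promoter in the 6 libraries, for H3K4me3 (78 genes) and H3K27ac (77 genes with peaks in the 5 longer lists), with libraries named by group and replicate. Black bars are the medians of these genes and dashed orange bars those of all genes with peaks. The H3K4me3 medians of siControl+TGFβ, 6619 and 6632, lie lowest.

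Mitochondrial ribosomal protein genes ranked nearer the top, with median H3K4me3 ranks of 2651 to 3612 and a fold enrichment of 6.27 to 7.55. For translation factors the ranks were 4458 to 6792, and for ribosome biogenesis genes 3370 to 5389. For H3K27ac, the median rank of members was 4392 and 4628 for siControl, 5228 and 4693 with TGFβ, and 4664 in siPHF13+TGFβ replicate 2. Over all 8577 genes it was 6364, 6072, 5967, 6256 and 5839 in that order. Among genes with H3K27ac in all 6 lists, the order of members and all genes varied. For the 42 members the medians were 3462 and 2607.5, 3643 and 3064.25, and 2487 and 3362 (siControl, siControl+TGFβ, siPHF13+TGFβ). Over the 3540 genes they were 3421 and 3115.5, 3075.5 and 3276.5, and 2843.5 and 3002. In the 5 longer lists the median fold enrichment was lower in members, at 5.54 to 7.29 against 5.59 to 7.86. Across 77 members the mean log ranks of the marks went together with Spearman's rho = 0.60, and across 8527 genes with rho = 0.23. The marks share the cells and not the libraries, and the coefficients are given as a description.

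RPS16, a small-subunit protein gene on chromosome 19 (39923777 to 39926589, minus strand), led all members. Its H3K4me3 ranks were 32 and 24 for siControl, 38 and 42 with TGFβ, and 29 and 41 with TGFβ and siPHF13. Its H3K27ac ranks were 140 and 99, 70 and 93, and 146 and 64 in that order. The fold enrichment at RPS16 was ordinary for H3K4me3, at 4.89 to 6.78, and low for H3K27ac, at 3.38 to 4.42. The 20 other promoters with H3K4me3 in all 6 lists and a TSS between 5 and 500 kb away had a median rank of 53.3, with a best rank of 19.0.

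RPS20, RPS3 and RPS14, also small-subunit genes, were among the next. For H3K4me3 RPS20 ranked at 429 to 2045 and RPS3 at 485 to 1934, and libraries of 1 group differed more than the groups did. RPS14 stood at 763 and 1111, 2002 and 1767, and 650 and 761, and here the siControl+TGFβ libraries lay apart from the other 4.

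At the other end was RPS6, the small-subunit protein phosphorylated by the S6 kinases, on chromosome 9 (19375713 to 19380234, minus strand). Its H3K4me3 ranks were 15040.5 and 15342 for siControl, 19056 and 19466 with TGFβ, and 17072.5 and 17506.5 with TGFβ and siPHF13, and the 3 groups did not overlap. H3K4me3 nevertheless covered 1442 to 1779 bp of its window. Its 5 neighbouring promoters had a median rank of 17474. RPL36AL, RPL3, RPL17 with its readthrough gene, and RPL23A made up the rest of the lowest, with mean ranks of 14871, 14784, 14664 and 14468.

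RPS16 and RPS6 thus stood near their neighbours, but other members at either end did not. The geometric mean rank over the 6 lists was 13762 at RPL23A and 2316 for the median of its neighbours, and the values were 870 and 5733 at RPS20 and 1158 and 6308 at RPL26L1. Over the 78 members, the rank went with the median rank of the neighbours at Spearman's rho = 0.58, given as a description, since neighbours share the chromosome region and the libraries. The part of the region in these ranks was not tested. Members with a TOP-like start had a median rank of 4706 (64 genes) and those without 7519 (14 genes). Their median fold enrichment went the other way, at 5.37 and 5.65. Those without include RPL39L, RPL7L1, RPS27L and RPS19BP1, which lie outside the subunit classes. Members with TATAAA had a median rank of 9429 (7 genes) and the others 4808 (71 genes). With a divergent partner it was 6498 (28 genes) and without 4712 (50 genes). Members holding small nucleolar RNAs had a median rank of 5384 (26 genes) and the others 4468 (52 genes).

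**Figure D3:**
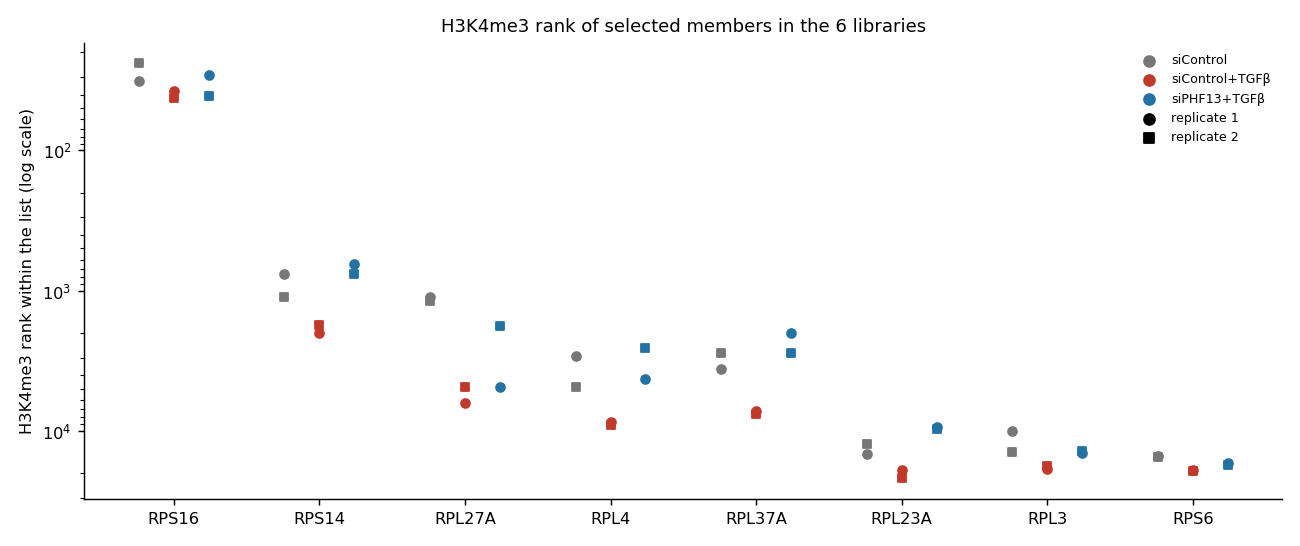
H3K4me3 rank within the list (log axis, 1 = strongest, drawn at the top) of 8 members, with 1 point per library, coloured by group and shaped by replicate. RPS16 stayed between 24 and 42 and RPS6 between 15040.5 and 19466, while RPL37A, RPL4 and RPS14 stood lower in both siControl+TGFβ libraries than in the other 4.

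RPS29, a small-subunit gene on chromosome 14 (TSS at 50053098, minus strand), was looked at after its values were seen, because its ranks jumped between libraries of 1 group. The strongest H3K4me3 peak in its window ranked 2731 and 131 for siControl, 5246 and 44 with TGFβ, and 8890 and 4795 with TGFβ and siPHF13. The high values came from a narrow peak upstream. It was 257 bp wide with a −log10 q of 182 in siControl replicate 2, and 262 bp wide with 408 in siControl+TGFβ replicate 2. For H3K27ac the same libraries had −log10 q values of 374 and 662, and siControl and siPHF13+TGFβ replicate 1 had weaker ones of 10.8 and 16.6. The peak that begins within 18 bp after the TSS of RPS29 reached a −log10 q of only 53.7 and 20.5 for H3K4me3 in those libraries.

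The ranks of RPS29 are therefore uncertain as measures of its own promoter in the libraries where the upstream peak was the strongest in the window.

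**Figure D4:**
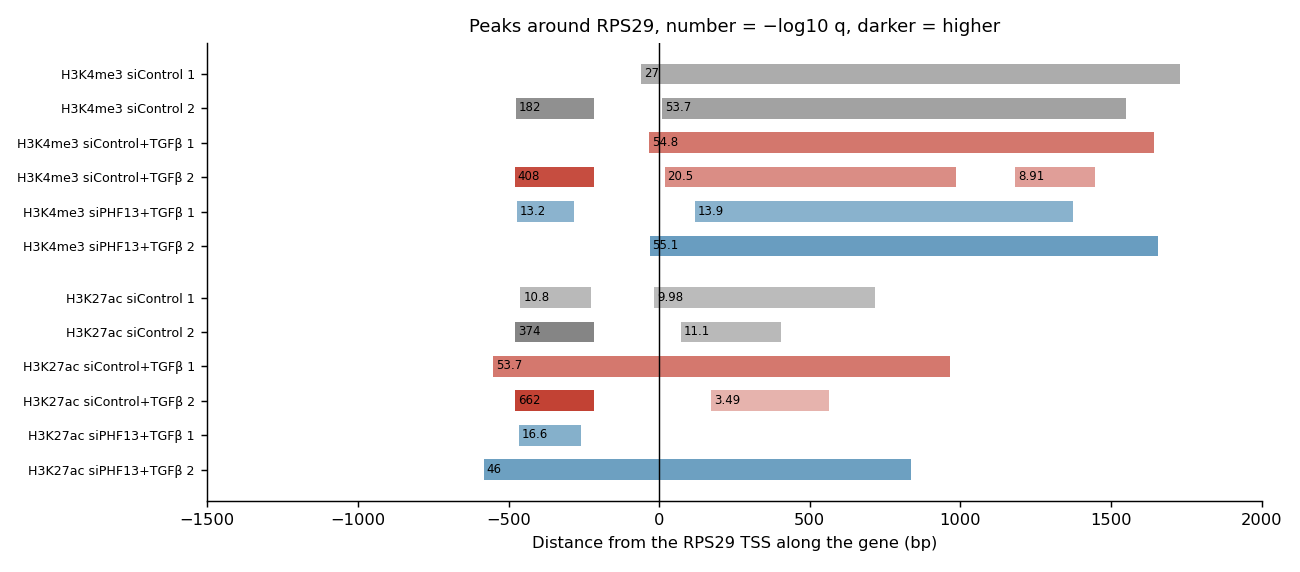
Peaks within the plotted range around the RPS29 TSS in the 12 H3K4me3 and H3K27ac lists, with distance from the TSS in bp along the gene (x axis) and 1 line per library. The number on each bar is its −log10 q and darker bars have higher values. The narrow upstream peak is strongest in replicate 2 of siControl (182 and 374) and of siControl+TGFβ (408 and 662).

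To ask whether TGFβ changed the H3K4me3 of these promoters, covered bp and rank were compared between siControl+TGFβ and siControl with limma, over all genes with a peak in all 6 lists. After Benjamini-Hochberg adjustment, 0 of 78 members passed for covered bp and 0 for rank, beside 0.0% of 12977 genes in both. Covered bp of 52 members was higher (77.4% of all genes) and of 21 lower (19.8% of all genes). The median log2 change was 0.04 against 0.07 over all genes. With 2 kb on each side of the TSS these medians were 0.12 and 0.10. At an unadjusted p under 0.05, 6 members were higher (3.41% of all genes) and 1 lower (0.27% of all genes). Both TGFβ libraries exceeded both siControl libraries at 24 members (36.5% of all genes) and lay below at 6 (3.99% of all genes). In the wider window the counts were 44 (45.8% of all genes) and 3 (2.63% of all genes). The direction depended on scaling, as seen after centring each library on its median over all genes. The counts were then 10 higher (12.8% of members, 15.5% of all genes) and 28 lower (35.9% of members, 21.8% of all genes).

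RPS19, whose mutation causes Diamond-Blackfan anaemia, had the lowest unadjusted p among members. H3K4me3 covered 1348 and 1375 bp for siControl, 1697 and 1712 bp with TGFβ, and 1374 and 1430 bp with TGFβ and siPHF13. The siControl+TGFβ libraries were above all 4 others. The log2 change with TGFβ was 0.32 ± 0.04 (SE; limma unadjusted p = 0.0017, adjusted p = 0.97), and the change with PHF13 depletion was -0.28 ± 0.04 (unadjusted p = 0.0028, adjusted p = 0.595).

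The largest differences in covered bp with TGFβ lay at large-subunit genes. RPL10A went from 948 and 996 bp to 1328 and 1394 bp, a log2 change of 0.49 ± 0.11. RPL13 had 866 and 1192 bp for siControl and 1404 and 1414 bp with TGFβ. RPL22, a subunit with tumour-suppressor roles outside the ribosome, had 1035 and 1100 bp, then 1467 and 1332 bp, a log2 change of 0.39 ± 0.07. In the other direction, RPL19 had 1126 and 1140 bp for siControl and 1110 and 682 bp with TGFβ, and its difference rested on replicate 2 alone. RPS18 had 1820 and 1918 bp, then 1708 and 1549 bp, and RPS15 had 1112 and 1037 bp, then 996 and 913 bp.

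The ranks gave a clearer split. With TGFβ, 67 of 78 members stood further from the top (58.4% of all genes) and 11 nearer (41.6% of all genes). The median log2 change in rank was 0.31 in members and 0.09 in all genes, where a positive value is a move away from the top. Both siControl+TGFβ libraries stood further from the top than both siControl libraries at 30 members (24.3% of all genes) and nearer at 4 (13.0% of all genes). At an unadjusted p under 0.05 there were 9 members further from the top and 0 nearer, beside 3.64% and 2.1% of all genes. By share of list length the counts of separated members were 18 further (12.4% of all genes) and 5 nearer (2861 of 12977 genes). By rank of fold enrichment they were 55 further (45.6% of all genes) and 0 nearer (4.77% of all genes).

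Both subunits contributed. Further from the top were 36 of 40 large-subunit genes, with a median change of 0.34, and 24 of 29 small-subunit genes, with 0.25. Of the paralogs with peaks, 5 of 6 stood further from the top. Other genes of protein synthesis did the same, with 28 of 35 translation factors (median 0.48) and 23 of 30 ribosome biogenesis genes (median 0.43). Mitochondrial ribosomal protein genes were nearer to the background, with 49 of 78 (58.4% of all genes) and a median of 0.12. RPL27A showed the largest change of rank among members, from 1111 and 1195 in siControl to 6371 and 4863 in siControl+TGFβ (log2 change 2.27 ± 0.50, limma adjusted p = 0.83).

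The longest H3K4me3 lists were those of siControl+TGFβ, and the part of list length in these ranks was not tested. As a percentage of list length, the median rank of members was 12.6% and 13.9% for siControl, 16.9% and 18.3% with TGFβ, and 16.7% and 14.9% in siPHF13+TGFβ. Over all genes with peaks it was 24.2% and 21.3%, 20.4% and 21.7%, and 26.7% and 22.9%. On this scale the members still fell back with TGFβ while the median of all genes did not.

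To ask what PHF13 depletion did under TGFβ, siPHF13+TGFβ was compared with siControl+TGFβ in the same fits. The comparison shares the siControl+TGFβ libraries with the previous one, so opposite signs in the pair of comparisons are not independent. Again 0 of 78 members passed for covered bp and 0 for rank after adjustment, beside 0.0% of all genes. Covered bp of 49 members was lower (86.4% of all genes) and of 23 higher (12.2% of all genes). The median covered bp of members was 1600.5 and 1553.5 with TGFβ, and 1380 and 1613 with TGFβ and siPHF13. Over all genes it was 1613 and 1576, then 1356 and 1556. Only siPHF13+TGFβ replicate 1 thus lay below siControl+TGFβ in the median of members. The median log2 change was -0.06 against -0.12 over all genes. The siPHF13+TGFβ libraries lay below both siControl+TGFβ libraries at 25 members (44.4% of all genes) and above at 5 (2.6% of all genes), and 3 members were lower (6.94% of all genes) and 1 higher (0.254% of all genes) at an unadjusted p under 0.05. After centring, the counts turned to 6 below (7.69% of members, 16.7% of all genes) and 36 above (46.2% of members, 23.5% of all genes). Without centring, but with 2 kb on each side of the TSS, they were 44 below (56.4% of members, 59.5% of all genes) and 1 above (1.28% of members, 0.5% of all genes).

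RPL34 and RPL27, both large-subunit genes, had the largest log2 decreases after RPL35. RPL34 was covered over 1092 and 1027 bp for siControl, 1236 and 1365 bp with TGFβ, and 1007 and 1017 bp with TGFβ and siPHF13, a log2 change with depletion of -0.36 ± 0.07. RPL27 was covered over 1113 and 1221 bp, 1390 and 1429 bp, and 1039 and 1164 bp, a log2 change of -0.36 ± 0.08. At RPL35 the decrease came from 1 library, with 2000 and 1882 bp with TGFβ, and 1143 and 1877 bp with TGFβ and siPHF13.

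RPS19BP1, which encodes a binding partner of RPS19 and is no ribosomal protein, differed the other way. It was covered over 1063 and 1070 bp for siControl, 1026 and 1066 bp with TGFβ, and 1407 and 1298 bp with TGFβ and siPHF13, a log2 change of 0.37 ± 0.06 with depletion (limma unadjusted p = 0.0030, adjusted p = 0.595). Both siPHF13+TGFβ libraries exceeded the other 4. RPL26 and RPL19, the other members with the largest increases, did not separate from siControl, at 1493 to 2000 bp and 682 to 1194 bp over the 6 libraries.

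**Figure D5:**
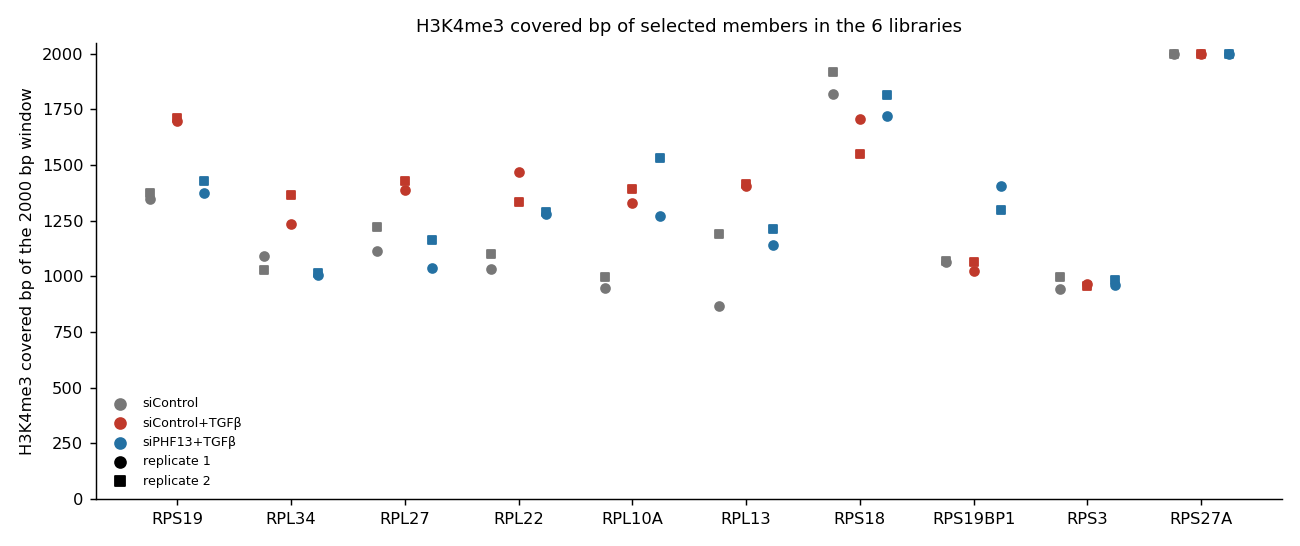
H3K4me3 covered bp of the 2000 bp window (y axis from 0) of 10 members, with 1 point per library, coloured by group and shaped by replicate. RPS19, RPL34 and RPL27 were widest in both siControl+TGFβ libraries, RPS19BP1 in both siPHF13+TGFβ libraries, while RPS3 stayed between 944 and 998 bp and RPS27A filled the window.

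In rank, members stood nearer the top after PHF13 depletion. The change was towards the top at 66 of 78 members (56.8% of all genes) and away from it at 12 (43.2% of all genes). The median log2 change was -0.41 against -0.07 over all genes. Both siPHF13+TGFβ libraries were nearer the top than both siControl+TGFβ libraries at 38 members (23.5% of all genes) and further from it at 2 (14.5% of all genes). At an unadjusted p under 0.05, 9 members were nearer the top and 0 further, beside 3.66% and 2.76% of all genes. By share of list length the separated members were 14 nearer (8.45% of all genes) and 6 further (32.1% of all genes). By rank of fold enrichment they were 71 nearer (59.7% of all genes) and 0 further (4.47% of all genes). Large-subunit genes made up 35 of the 66, with a median of -0.43, and small-subunit genes 23, with -0.29.

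RPL37A, a large-subunit gene, had the lowest unadjusted p. Its H3K4me3 ranks were 3638 and 2787 for siControl, 7243 and 7525 with TGFβ, and 2004 and 2792 with TGFβ and siPHF13. The siControl+TGFβ pair lay apart from the other 4 libraries. The log2 change with depletion was -1.64 ± 0.30 (limma unadjusted p = 0.0017, adjusted p = 0.70), after 1.21 ± 0.30 with TGFβ. RPL4 had 2933 and 4859, 8644 and 9035, and 4257 and 2572 in that order, a log2 change of -1.42 ± 0.39 with depletion. RPS14 changed by -1.42 ± 0.30, and RPL23A, at 14531 and 12458, 19039 and 21731, and 9346 and 9704, by -1.09 ± 0.26.

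Against the other lists, the change after depletion differed in extent. Translation factors moved towards the top at 23 of 35 genes (median -0.31) and ribosome biogenesis genes at 22 of 30 (median -0.32), whereas mitochondrial ribosomal protein genes did so at 37 of 78 (median 0.03). These medians were not tested against each other. As a percentage of list length, the median change over members was -1.15 percentage points, and it was 3.27 over all genes. The siPHF13+TGFβ lists were shorter, with 27869 and 33491 peaks against 39202 and 36308 in siControl+TGFβ. In rank itself the median log2 change over all genes was -0.07, so their direction depended on the scale.

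Among members named for their known roles, RPL5 and RPL11, which bind MDM2 when ribosome assembly is disturbed, showed no separation by TGFβ in covered bp. RPL5 had 970 and 1039, 1097 and 996, and 966 and 1020 bp, and RPL11 had 1351 and 1366, 1460 and 1348, and 1070 and 1367 bp. RPS3, RPL13A and RPS3A were among the steadiest, RPS3 at 944 to 998 bp and RPL13A at 951 to 1010 bp. RPL3, which sits near the peptidyl transferase centre, ranked at 10068 and 14114, 18665 and 17737, and 14268 and 13853.

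Of the paralogs, RPL26L1 was covered over 1817 to 2000 bp and ranked from 772 to 1703, near the best members. RPL22L1 was covered over 1578 to 1908 bp, RPS27L over 1674 to 1822 bp, RPL7L1 over 1371 to 1528 bp, and RPL36AL over 1649 to 1825 bp. RPL39L had lower ranks, between 11214 and 14243, in addition to its incomplete H3K27ac. The readthrough gene RPS10-NUDT3 was covered over 1323 to 1545 bp.

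For H3K27ac with TGFβ, 0 of the 42 members with peaks in all 6 lists passed limma after adjustment for covered bp and 0 for rank, beside 0.0% of 3540 genes, and at an unadjusted p under 0.05 the count for covered bp was 0 (0.0847% of all genes larger). The 3 groups share 1 estimate of spread, so siPHF13+TGFβ replicate 1, which is outside this comparison, entered these p-values. In log2 covered bp the median SD of members within groups was 0.89, against 0.086 for H3K4me3. The absence of calls is therefore no measure of the TGFβ difference alone. Covered bp was nevertheless larger at 41 of 42, as it was at 96.3% of all genes, with a median log2 change of 0.35 against 0.32. Both siControl+TGFβ libraries exceeded both siControl libraries at 26 members (58.1% of all genes) and lay below at 0 (0.339% of all genes). After centring these counts were 6 (15.4% of all genes) and 6 (24.6% of all genes). With the 4 libraries of this comparison alone, 77 members could be used, of which 46 were separated upwards (55.1% of 8577 genes) and 0 downwards (0.163% of 8577 genes).

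The largest differences were at RPL37A, RPS27 and RPS3A. RPL37A had 706 and 1133 bp for siControl and 1831 and 1543 bp with TGFβ, RPS27 had 803 and 583 bp and then 1270 and 1028 bp, and RPS3A had 739 and 703 bp and then 1337 and 944 bp. Both TGFβ libraries were above both siControl libraries in each case. In rank by −log10 q the members were split, with 22 further from the top (44.5% of all genes) and 20 nearer (55.5% of all genes). The median log2 change was 0.07 against -0.08 over all genes. By rank, both siControl+TGFβ libraries were further from the top at 8 members (16.1% of all genes) and nearer at 7 (21.6% of all genes), and at an unadjusted p under 0.05 there were 0 further (1.55% of all genes) and 1 nearer (3.39% of all genes). By share of list length the separated members were 1 further (3.70% of all genes) and 13 nearer (40.2% of all genes). By rank of fold enrichment they were 24 further (37.9% of all genes) and 0 nearer (8.87% of all genes), with a median log2 change of 0.60 against 0.42.

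The H3K27ac comparison with PHF13 depletion rested on siPHF13+TGFβ replicate 1. Covered bp was lower at 42 of 42 members and at 99.8% of all genes, with medians of -0.95 and -1.03, and 0 members passed after adjustment, beside 0.0% of all genes, or at an unadjusted p under 0.05 (0.367% of all genes lower). Without that library 77 members could be used and the median turned to 0.07, with 0.11 over all genes. Without replicate 2 of siPHF13+TGFβ, 41 of 42 members passed, as did 3363 of 3540 genes. RPL41, with 1858 and 2000 bp for siControl, 2000 and 2000 bp with TGFβ, and 194 and 1994 bp with TGFβ and siPHF13, shows how far the pair differed.

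Within the short list, RPL27A, RPS16, RPL4 and RPL7L1 were the most fully covered of the members described here, at 1111, 1109, 961 and 700 bp. Both siPHF13+TGFβ libraries lay below both siControl+TGFβ libraries at 5 members (15.4% of all genes) and above at 0 (0.0% of all genes). In rank, the median log2 change was -0.23, against -0.18 over all genes, with 12 members nearer the top in both libraries (24.9% of all genes) and 4 further from it (12.7% of all genes). At an unadjusted p under 0.05, 2 members were nearer (4.6% of all genes) and 2 further (2.74% of all genes). No rank in siPHF13+TGFβ replicate 1 can exceed its 6004 peaks, while the siControl+TGFβ lists hold 36104 and 27110. These ranks therefore cannot separate a move towards the top from the shorter list. With lists of equal length, 3 of 26 members were nearer the top in both libraries (350 of 2075 genes) and 3 further (374 of 2075 genes). By share of list length the separated members were 0 nearer (1.24% of all genes) and 8 further (850 of 3540 genes), and by rank of fold enrichment 18 nearer (28.7% of all genes) and 1 further (6.78% of all genes). RPS26, another small-subunit gene, held H3K27ac ranks of 531 and 606, 474 and 510, and 546 and 475, and RPS9 of 528 and 509, 330 and 876, and 1236 and 471. Among the lowest H3K27ac ranks of members with peaks in all 6 lists were those of RPL35, RPL36, RPL37A and RPL29, and RPL35 stood at 15656 and 10891.5, 13142 and 12913.5, and 3918.5 and 8188.5. RPL31 was among the members that differed least with depletion, with 1491 and 1201 bp and then 614 and 1561 bp.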

How the data were processed

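Members and comparison lists were chosen with earlier results of these data known. Per the labels and the methods of the study, reads were trimmed (Trim Galore 0.4.1), aligned to hg19 (Bowtie2 2.4.1), freed of duplicates with Picard and used to call peaks against input with MACS2 2.2.7.1, separately in each library. The deposited files of H3K27me3 hold broad peaks, the others narrow peaks. The authors' lists give for each peak a fold enrichment (a ratio over control), −log10 p and q values, a whole-number score made from the latter, which was not used, and a summit offset. Without read counts in them, the depth behind a peak is unknown, and no counting interval is given. The lowest −log10 q deposited was 1.30 for narrow and 1.00 for broad peaks. For narrow peaks of these marks the study states a stricter limit, equal to a −log10 q of 3. The values here rest on all deposited peaks. With peaks of at least 3, H3K4me3 was in all lists at 78 members (12837 genes) and H3K27ac at 30 (2603 genes).

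Each gene of GENCODE release 44, in its version for GRCh37 (the sequence of hg19), had 1 TSS, that of the canonical transcript for 18978 genes and of the longest for 251. Base pairs covered by peaks within 1 kb on each side, and the rank of the strongest overlapping peak (1 bp or more), were computed with NumPy 2.4.6 in Python 3.11.15. Their log2 values were tested with limma 3.58.1 in R 4.3.3 (two-sided moderated test, 1 model per mark and measure for the 3 groups, no pseudocount), over all autosomal protein-coding genes with a peak in all 6 lists of the mark, with a Benjamini-Hochberg threshold of 0.05. The scripts were tested on simulated data. Sequences were read from GRCh37, and RefSeq promoters are of GRCh38.p14.

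Genes were named by a rule: all paralogs and other loci, members without H3K4me3 or with H3K27me3 in at least 4 lists, 10 genes of known roles, and per mark the 5 best and worst ranks, the 5 widest and narrowest windows and the 3 largest changes of covered bp in each direction. RPS29, the members singled out by rank change (RPL37A, RPL4, RPL23A, RPL27A and RPS14) and those quoted from the short list were chosen after their values were seen. Inputs and genes of the sex chromosomes were not analysed here. Some items named by the rule are not reported here. Alternatives were other windows, TSSs, peak filters, scales, fits and left-out libraries. Correlations of the deviations of same-numbered libraries from their group means ran from -0.32 to 0.47, so replicate numbers were not used to pair libraries.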

Additional observations from a re-analysis of the deposited data

How the results depend on the processing

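Under 13 alternatives and with each library left out in turn, the number of members past adjustment stayed at 0 for both marks, both measures and both comparisons, except for H3K27ac covered bp with depletion, where it ran from 0 to 41 as libraries were left out. With a replicate block the median changes kept their values (0.04 and -0.06 for H3K4me3 covered bp, 0.31 and -0.41 for H3K4me3 rank) and it changed no call. With the replicate numbers of siControl+TGFβ exchanged, an alternative chosen after seeing the data, 0 members and 2 of 3540 genes passed for H3K27ac covered bp with depletion. Leaving out the readthrough genes, also chosen later, changed no call.

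For H3K4me3 covered bp with depletion, the median of members was -0.19 with 2 kb on each side and 0.078 after centring each library on its median. The members further from the top with TGFβ in both libraries numbered 18 by share of list length (12.4% of all genes) and 55 by fold enrichment (45.6% of all genes), and those nearer it with depletion 14 (8.45% of all genes) and 71 (59.7% of all genes). The TGFβ median of H3K4me3 covered bp was 0.12 with 2 kb on each side. Leaving out a library gave counts by rank of 35 to 58 (40.1% to 42.0% of all genes) and 46 to 58 (38.7% to 41.8% of all genes). The count of 35 (44.9% of members, 40.7% of all genes) came without siControl+TGFβ replicate 1. The medians were 0.15 to 0.50 and -0.52 to -0.29 for rank, and 0.00 to 0.08 and -0.11 to 0.00 for covered bp. The TGFβ rank median was 0.15 without siControl+TGFβ replicate 1 and 0.50 without replicate 2, and the counts of 58 both came without siControl+TGFβ replicate 2, that of 48 without siControl replicate 2. A group left with 1 library separates more easily and was assumed to vary like the others.

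Members with H3K27ac in all lists were 26 with lists of equal length, 23 with the 50% strongest peaks, 14 with at least 500 bp covered, and 42 to 77 as lists were left out. The H3K27ac covered bp medians ran from 0.18 to 0.49 with TGFβ and from -2.05 to 0.066 with depletion as libraries were left out, and the latter was 0.15 after centring. H3K27ac rank medians were -2.15 points by share of list and 0.60 by fold enrichment with TGFβ (-0.07 to 0.13 as libraries were left out), and 12.8 points, -0.87 and, with lists of equal length, 0.14 with depletion (-0.46 to -0.18). The causes were not tested. With 2 libraries per group and no read counts, small changes at single promoters were not detectable.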
